A study of Mus musculus with 8 samples.

Results

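The genes described are 10 collagen genes of muscle fibro-adipogenic progenitors (FAPs), chosen by symbol from the deposited tables and present among 55276 gene symbols: Col12a1, Col14a1 and Col16a1 of the FACIT class and its relatives, Col6a1, Col6a2, Col6a3 and Col6a6 of type VI collagen, Col7a1 of type VII collagen, and Col8a1 and Col8a2 of type VIII collagen. All 10 passed the filter on low values at both days. FAPs were sorted from the tibialis anterior muscle of mice aged 4 to 6 months after freeze-pierce injury, and their RNA was sequenced at 3 and 7 days post injury (dpi). The control group carried 1 floxed Osr1 allele (Osr1 flox/+ CAGG Cre+) and the Osr1cKO group carried floxed alleles on both chromosomes (Osr1 flox/flox CAGG Cre+), with 2 libraries for each genotype and day. Both genotypes carried the tamoxifen-inducible CAGG-CreER, which is active in many cell types, and both received tamoxifen, so the controls were heterozygous for the recombined allele. Cells were sorted on GFP from the recombined Osr1 allele. Each library held the cells of 1 mouse at 3 dpi but of 4 mice, pooled, at 7 dpi, so day cannot be told apart from the number of mice per library.

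Collagens are triple-helical proteins that FAPs and other fibroblast-like cells secrete into the extracellular matrix (ECM). FACIT collagens sit on the surface of collagen fibrils and link them to other matrix components. Type VI collagen forms beaded microfibrils around muscle fibers and in the muscle stem cell niche, type VII collagen forms anchoring fibrils below basement membranes, and type VIII collagen is a short-chain, network-forming collagen of vessel walls and of the Descemet membrane of the eye.

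Osr1 transcript was lower in both Osr1cKO libraries than in both controls at each day. Its level was 105 and 91.0 TPM (a transcript level corrected for gene length and sequencing depth) in the controls and 70.7 and 71.9 TPM in the Osr1cKO libraries at 3 dpi. The later levels were 67.6 and 71.6 TPM in the controls and 64.4 and 60.8 TPM in the Osr1cKO libraries at 7 dpi. These values sum over the whole gene, so they do not report the deleted exon on its own. The libraries held between 36516513 and 51096350 fragments assigned to genes. All 6 FAP markers (Pdgfra, Ly6a, Cd34, Dcn, Pi16 and Dpp4) were present in each group, with a summed level between 3794 and 7357 TPM per library. In bulk samples of this kind, fewer cells with a transcript and less transcript per cell cannot be told apart. Statements below that groups overlap or are apart refer to the deposited TPM unless scaled values are named.

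Together the 10 collagen genes took 0.471% to 0.806% of all TPM at 3 dpi, rising to a range of 1.0% to 1.05% by 7 dpi. A two-sided exact permutation test of 4 libraries against 4 gave p = 0.0286, the smallest such a test allows. This test, and those of chain shares and ratios between days below, shuffled all 8 libraries without regard to genotype. The main chains of type VI collagen, Col6a1, Col6a2 and Col6a3, accounted for between 76.6% and 83.4% of that sum. In the 7 dpi controls the levels ran, from highest to lowest, Col6a1, Col6a2, Col6a3, Col14a1, Col16a1, Col12a1, Col8a1, Col8a2, Col6a6 and Col7a1, and the replicate ranges of neighbours in this order did not overlap. In the 3 dpi controls the order was Col6a1, Col6a3, Col6a2, Col12a1, Col16a1, Col8a1, Col14a1, Col8a2, Col7a1 and Col6a6. There, the ranges overlapped between Col6a3 and Col6a2, between Col16a1, Col8a1 and Col14a1, and between Col7a1 and Col6a6. Both orders compare genes in TPM and so rest on the exon length used for each gene. The plot of TPM by library shows these levels gene by gene.

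**Figure D1:**
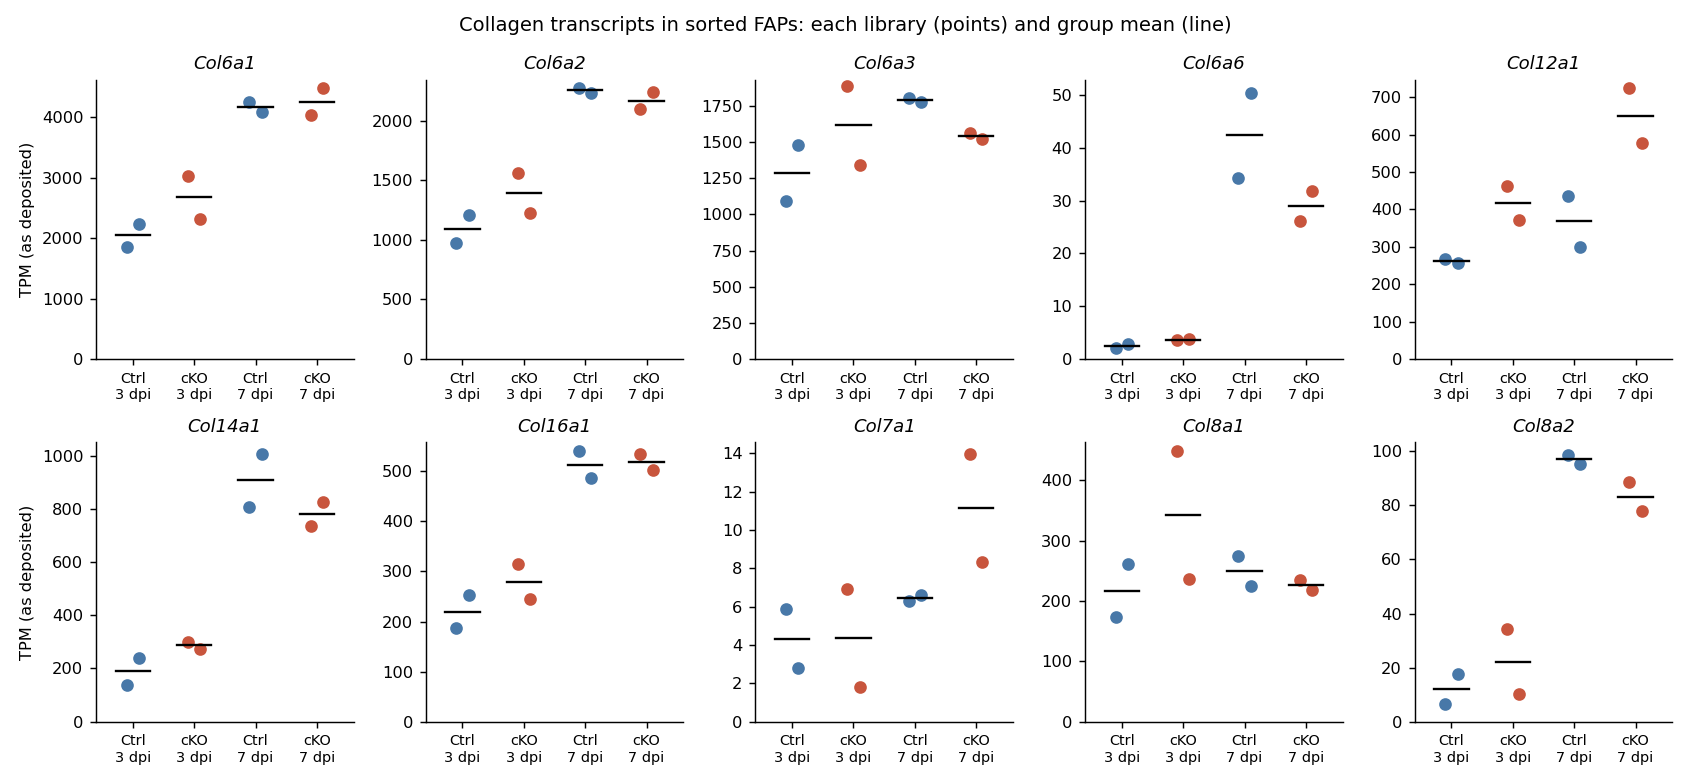
Each panel plots 1 collagen gene, with deposited TPM on a linear axis from 0 and the 4 groups on the x axis. Points are the 2 libraries of a group (blue, control; red, Osr1cKO) and lines are group means. Col6a6 lies at 2.04 to 3.84 TPM at 3 dpi and at 26.2 to 50.5 TPM at 7 dpi, whereas Col12a1 is higher in both Osr1cKO libraries at each day.

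The α1, α2 and α3 chains of type VI collagen assemble into a heterotrimer, so their balance was examined first. Col6a1 and Col6a2 lie beside each other on chromosome 10 (GRCm38, 76708792 to 76726168 and 76595762 to 76623630, both on the minus strand), Col6a3 lies on chromosome 1 (90765923 to 90843971, minus strand) and Col6a6 on chromosome 9 (105687809 to 105828160, minus strand). The bases before the annotated starts of these genes are shown because Col6a1 and Col6a2 had near-identical profiles over the libraries, while Col6a3 and Col6a6 departed from them. They come from RefSeq (GRCm38.p6), are read 5′ to 3′ along the gene, and lie on the minus strand at chr10:76726169-76726294, chr10:76623631-76623880, chr1:90843972-90844221 and chr9:105828161-105828335. Capitals mark a match to GGGCGG or CCAAT on either strand (CCGCCC and ATTGG on the other).
Col6a1: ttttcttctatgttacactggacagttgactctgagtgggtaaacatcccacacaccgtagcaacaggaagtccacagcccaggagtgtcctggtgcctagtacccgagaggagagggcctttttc
Col6a2: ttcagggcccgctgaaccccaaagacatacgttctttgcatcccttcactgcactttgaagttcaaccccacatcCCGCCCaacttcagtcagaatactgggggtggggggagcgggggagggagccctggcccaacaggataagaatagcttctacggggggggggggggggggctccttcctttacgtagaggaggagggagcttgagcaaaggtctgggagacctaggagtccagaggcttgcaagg
Col6a3: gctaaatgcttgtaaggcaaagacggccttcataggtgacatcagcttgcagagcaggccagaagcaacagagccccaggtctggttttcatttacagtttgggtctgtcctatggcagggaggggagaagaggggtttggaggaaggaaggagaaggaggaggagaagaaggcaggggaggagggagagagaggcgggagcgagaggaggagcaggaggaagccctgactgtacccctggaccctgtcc
Col6a6: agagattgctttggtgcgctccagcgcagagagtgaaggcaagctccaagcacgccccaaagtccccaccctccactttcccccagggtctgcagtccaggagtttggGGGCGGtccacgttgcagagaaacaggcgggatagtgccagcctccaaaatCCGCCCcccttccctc

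Of the 8 members with a RefSeq promoter window (250 bases before and 50 after the start), 6 held GGGCGG or its reverse complement, against 35.7% of 32851 windows of the same length. CCAAT was found in 2 of the 8, against 37.4% of windows, and TATAAA in none of the 8, against 13.6%. The AP-1 letters TGANTCA were found in Col6a1 only among the 8, against 7.81% of windows, and lay outside the stretch printed above. Such matches describe letters, not bound sites.

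Col6a1, which encodes the α1(VI) chain, measured 1858 and 2236 TPM in the controls and 3033 and 2313 TPM in the Osr1cKO libraries at 3 dpi. By 7 dpi its level was 4261 and 4093 TPM in the controls and 4031 and 4490 TPM in the Osr1cKO libraries. All 4 libraries of 7 dpi were higher than all 4 of 3 dpi, and the genotypes were apart at 3 dpi but overlapped at 7 dpi. Col6a2, which encodes the α2(VI) chain, measured 974 and 1207 TPM in the controls and 1561 and 1227 TPM in the Osr1cKO libraries at 3 dpi. Its 7 dpi levels were 2279 and 2230 TPM in the controls and 2096 and 2237 TPM in the Osr1cKO libraries. Both libraries of each 7 dpi group were again above all libraries of 3 dpi, and the ratio of Col6a1 to Col6a2 TPM ranged between 1.84 and 2.01 over the 8 libraries. This ratio rests on the annotated exon lengths, 4380 bases for Col6a1 and 8326 for Col6a2. The fragments themselves were nearly equal, at 101340 and 100965 in control replicate 1 of 3 dpi. In control replicate 1 of 7 dpi they were 201165 and 204496.

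Col6a3, the long α3(VI) chain whose cleaved C-terminal fragment is known as endotrophin, measured 1093 and 1478 TPM in the controls and 1892 and 1340 TPM in the Osr1cKO libraries at 3 dpi. Col6a3 then measured 1807 and 1780 TPM in the controls and 1567 and 1525 TPM in the Osr1cKO libraries at 7 dpi. The genotypes overlapped at 3 dpi, while both Osr1cKO libraries were below both controls at 7 dpi. Its share of the summed TPM of these 3 chains was 27.9% and 30.03% in the controls and 29.2% and 27.5% in the Osr1cKO libraries at 3 dpi. At 7 dpi the share was 21.6% and 22.0% in the controls and 20.4% and 18.5% in the Osr1cKO libraries. Over both genotypes the share fell by 8.02 percentage points between the days, from 28.6% ± 1.19 to 20.6% ± 1.58 (SD, n = 4 each). The two-sided exact permutation test, with genotype ignored, gave p = 0.0286, the smallest that 4 libraries against 4 allow. The Benjamini-Hochberg p was 0.0286 over the 3 chains. The share of Col6a1 was 5.36 points higher and that of Col6a2 2.66 points higher at 7 dpi, with the same p. Between genotypes, the Col6a3 share differed by 2.39 points at 7 dpi, lower in Osr1cKO (-3.33 points without Osr1cKO replicate 1 and -1.44 points without replicate 2), and 2 libraries against 2 cannot give a p below 0.333.

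**Figure D2:**
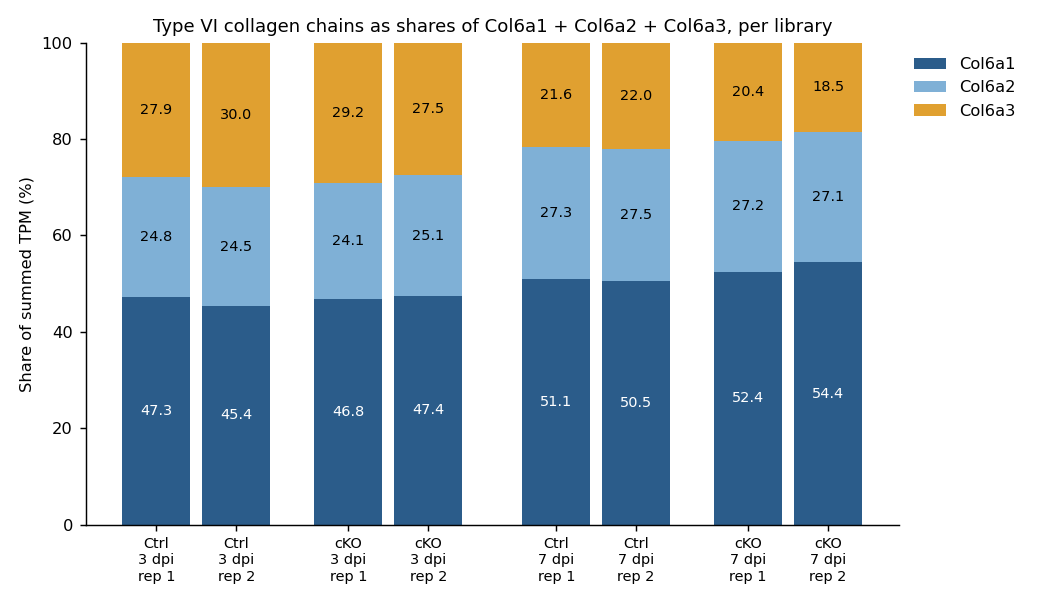
Stacked bars give the share (%) of Col6a1, Col6a2 and Col6a3 in their summed TPM for each of the 8 libraries. The Col6a3 segment spans 27.5% to 30.03% over the 4 libraries of 3 dpi but 18.5% to 22.0% over those of 7 dpi.

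Col6a6, an alternative chain that resembles the α3(VI) chain, was low at 3 dpi, and its mean TPM at 7 dpi was 17.4 times as high in the controls and 7.87 times in Osr1cKO. It measured 2.04 and 2.84 TPM in the controls and 3.55 and 3.84 TPM in the Osr1cKO libraries at 3 dpi, from between 233 and 461 fragments per library. Its levels at 7 dpi were 34.3 and 50.5 TPM in the controls and 26.2 and 31.9 TPM in the Osr1cKO libraries. Both Osr1cKO libraries were above both controls at 3 dpi and below both at 7 dpi. Col6a6 shares 63 bases of exon with Gm38314 on the opposite strand, 0.687% of its exons.

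Among the FACIT class, Col12a1 was the member that differed between genotypes in the same direction at both days. Col12a1 (chromosome 9, 79598991 to 79718831, minus strand) encodes the α1(XII) chain, which associates with type I collagen fibrils. It measured 437 and 301 TPM in the controls and 723 and 576 TPM in the Osr1cKO libraries at 7 dpi, and 268 and 256 TPM against 464 and 373 TPM at 3 dpi. The genotypes did not overlap at either day, and all Osr1cKO libraries of 7 dpi were above every other library. Col14a1 (chromosome 15, 55307750 to 55520803, plus strand), which encodes undulin, a fibril-bound collagen of tendon and dermis, measured 140 and 241 TPM in the controls and 300 and 275 TPM in the Osr1cKO libraries at 3 dpi. By 7 dpi Col14a1 was at 807 and 1006 TPM in the controls and 735 and 827 TPM in the Osr1cKO libraries. Col14a1 was lowest in 1 control library of 3 dpi, and at 7 dpi the genotypes overlapped. Col16a1 (chromosome 4, 130047840 to 130099283, plus strand), which encodes the α1(XVI) chain, measured 186 and 253 TPM in the controls and 314 and 245 TPM in the Osr1cKO libraries at 3 dpi. Levels at 7 dpi were 540 and 487 TPM in the controls and 535 and 503 TPM in the Osr1cKO libraries. Its genotypes overlapped at both days.

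Col7a1 (chromosome 9, 108953586 to 108984875, plus strand), the anchoring fibril chain, was the lowest member at 7 dpi in both genotypes. It measured 5.86 and 2.81 TPM in the controls and 6.95 and 1.80 TPM in the Osr1cKO libraries at 3 dpi. The 7 dpi values were 6.28 and 6.61 TPM in the controls and 14.0 and 8.35 TPM in the Osr1cKO libraries. The genotypes overlapped at 3 dpi, and both Osr1cKO libraries were above both controls at 7 dpi. Mir711 lies in 36 bases of its exons on the same strand, 0.35% of their length.

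The levels of the type VIII collagen chains were closer to each other at 7 dpi than at 3 dpi. Col8a1 (chromosome 16, 57624258 to 57754737, minus strand), the α1(VIII) chain, measured 173 and 262 TPM in the controls and 449 and 237 TPM in the Osr1cKO libraries at 3 dpi. Col8a1 levels at 7 dpi were 274 and 225 TPM in the controls and 234 and 218 TPM in the Osr1cKO libraries. Its ranges overlapped between the genotypes at both days, and 1 Osr1cKO library of 3 dpi stood above all others. Col8a2 (chromosome 4, 126286793 to 126314330, plus strand), the α2(VIII) chain, measured 6.55 and 17.5 TPM in the controls and 34.3 and 10.1 TPM in the Osr1cKO libraries at 3 dpi. By 7 dpi Col8a2 had reached 98.7 and 95.3 TPM in the controls and 88.6 and 77.9 TPM in the Osr1cKO libraries. All libraries of 7 dpi were above all libraries of 3 dpi, and both Osr1cKO libraries were below both controls at 7 dpi. The ratio of Col8a1 to Col8a2 TPM was from 13.1 to 26.4 at 3 dpi, but from 2.36 to 2.81 at 7 dpi (19.5 ± 6.48 against 2.65 ± 0.203, SD, n = 4 each, two-sided exact permutation test p = 0.0286, the smallest possible). The 2 promoter stretches are shown because the chains changed unequally between the days. They come from RefSeq (GRCm38.p6) at chr16:57754738-57754987 on the minus strand and chr4:126286544-126286792 on the plus strand, with the same letters in capitals as above, and both hold GC box letters, in 4 places each.
Col8a1: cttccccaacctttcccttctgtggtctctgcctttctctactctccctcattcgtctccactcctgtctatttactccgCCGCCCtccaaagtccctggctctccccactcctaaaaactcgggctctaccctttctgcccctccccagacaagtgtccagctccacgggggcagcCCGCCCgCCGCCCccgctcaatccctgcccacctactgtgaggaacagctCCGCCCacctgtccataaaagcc
Col8a2: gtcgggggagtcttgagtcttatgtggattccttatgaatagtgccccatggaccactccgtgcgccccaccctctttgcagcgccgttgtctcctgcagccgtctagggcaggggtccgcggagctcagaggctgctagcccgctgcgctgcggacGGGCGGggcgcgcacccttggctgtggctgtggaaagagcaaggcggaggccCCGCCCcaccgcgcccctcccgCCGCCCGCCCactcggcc

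From 3 to 7 dpi, the question was how these collagens change as regeneration proceeds. In the controls 6 of the 10 rose by the call used here, an adjusted p under 0.05 and a fold over 1.2, and none fell. Of the 17367 genes tested, 21.6% rose and 23.7% fell. Fold changes are differences in log2(TPM + 1) after scaling, which understates changes of low genes. Col6a6 rose by 3.72 ± 0.22 (standard error; limma, Benjamini-Hochberg adjusted p = 0.000153). Col8a2 rose by 3.13 ± 0.59 (limma, adjusted p = 0.00497) and Col14a1 by 2.38 ± 0.27 (limma, adjusted p = 0.000714). Col16a1 rose by 1.32, Col6a2 by 1.14 and Col6a1 by 1.12, with limma adjusted p-values of 0.00237, 0.0047 and 0.0101. The 4 others were not called: Col7a1 at 0.62 (adjusted p = 0.356 by limma), Col6a3 at 0.58 (adjusted p = 0.0924), Col12a1 at 0.55 (adjusted p = 0.0789) and Col8a1 at 0.31 (adjusted p = 0.477). Without control replicate 1 or replicate 2 of 7 dpi, the limma adjusted p of Col6a1 was 0.0584 and 0.0521. Col6a3 was called without control replicate 2 of 3 dpi (0.83, limma adjusted p = 0.0354), and Col12a1 without control replicate 2 of 7 dpi (0.84, limma adjusted p = 0.0403). After scaling, the control libraries of the days did not overlap for 9 of the 10 members, all but Col8a1 and each higher at 7 dpi, against 38% of all genes higher and 36.5% lower in this way.

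In the Osr1cKO libraries 4 members rose and none fell, against 17.6% of genes that rose and 22.8% that fell. The called members were Col6a6 (2.59 ± 0.22, limma, adjusted p = 0.000544), Col8a2 (2.003 ± 0.59, limma, adjusted p = 0.0313), Col14a1 (1.35 ± 0.27, limma, adjusted p = 0.00712) and Col16a1 (0.81 ± 0.20, limma, adjusted p = 0.0184). Col16a1 and Col8a2 were no longer called without Osr1cKO replicate 2 of 3 dpi or without either Osr1cKO library of 7 dpi, with adjusted p-values by limma from 0.0606 to 0.134. Col8a1 fell by 1.09 when Osr1cKO replicate 2 of 3 dpi was left out (limma, adjusted p = 0.0366), and Col7a1 rose by 2.01 when replicate 1 was (limma, adjusted p = 0.0193). Without scaling between libraries, 7 members rose, while 3456 of the 17367 genes tested rose and 3505 fell. The all-gene median was then 0.07, against 0.01 with scaling. With scaling, Col6a1 differed by 0.60, Col6a2 by 0.56, Col12a1 by 0.55, Col7a1 by 1.25, Col6a3 by -0.13 and Col8a1 by -0.61. All of these had a limma adjusted p above the threshold. The scaled Osr1cKO libraries of the days did not overlap for 8 members that were higher at 7 dpi (38% of all genes) and for Col8a1, which was lower (38.7%).

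**Figure D3:**
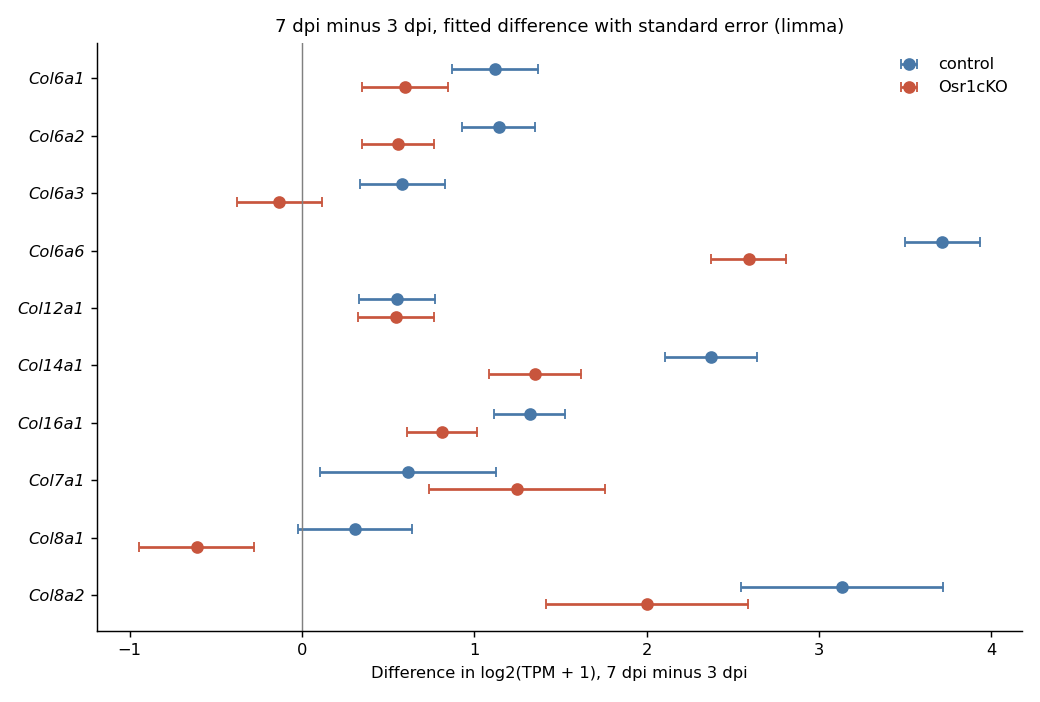
Points give the fitted difference in log2(TPM + 1), 7 dpi minus 3 dpi, on the x axis for the 10 members in rows, in control (blue) and Osr1cKO (red) libraries, and bars are standard errors from limma. Col6a6 lies farthest right in both genotypes, at 3.72 and 2.59, and Col8a1 lies at 0.31 and -0.61.

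At 3 dpi, the question was whether loss of Osr1 changes the collagens of FAPs. A gene was called there on an unadjusted p under 0.05 and a fold over 1.2. Of the 10 members 1, Col12a1, was called higher in Osr1cKO and none lower, against 2.4% of the 15697 genes tested called higher and 3.87% called lower. Col12a1 was higher by 0.67 ± 0.17 (limma, unadjusted p = 0.0113), but its Benjamini-Hochberg adjusted p was 0.773, and none of the 15697 genes passed an adjusted p of 0.1. With 1 library left out, the Col12a1 difference ranged from 0.48, without Osr1cKO replicate 1, to 0.85. Differences were positive in 9 of the 10 members, with a median of 0.42 against 0.01 over all genes: 0.74 ± 0.70 for Col8a2, 0.64 ± 0.29 for Col14a1, 0.62 ± 0.38 for Col8a1, 0.46 ± 0.21 for Col6a6, and from 0.33 to 0.38 for Col6a1, Col6a2, Col6a3 and Col16a1. Col7a1 differed by -0.11 ± 0.58. Leaving out Osr1cKO replicate 1 brought the median to 0.15, and control replicate 1 to 0.24. With replicate 2 of the controls or of Osr1cKO left out, it was 0.599 or 0.63. The scaled libraries of the genotypes did not overlap for 4 members, all higher in Osr1cKO (Col12a1, Col14a1, Col6a1 and Col6a6), against 18.5% of all genes higher and 18% lower in this way. In deposited TPM Col6a2 joined them, and 18.2% of all genes were higher in this way.

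The members varied together between replicates of 3 dpi. The median absolute difference between the 2 control replicates was 0.52 on the log2 scale, against 0.26 over all genes, and that between the 2 Osr1cKO replicates was 0.41, against 0.16. In the controls, 9 of the 10 were higher in replicate 2, against 57.6% of all genes, and in Osr1cKO 9 of the 10 were higher in replicate 1, against 49.7%. At 7 dpi the medians were 0.12 and 0.15, against 0.12 and 0.13 over all genes. The summed level of the tenocyte markers Scx, Tnmd, Mkx and Thbs4 moved with genotype at both days. At 3 dpi it was 522 and 776 TPM in the controls and 1764 and 1563 TPM in the Osr1cKO libraries, most of it Thbs4. At 7 dpi it was 2235 and 2450 TPM in the controls and 2874 and 3256 TPM in the Osr1cKO libraries. The summed FAP markers were 7357 and 6138 TPM in the controls and 4458 and 3794 TPM in the Osr1cKO libraries at 3 dpi. Ly6a made up most of this sum, at 5407 and 4232 TPM against 3058 and 2020 TPM. It was the only FAP marker called at 3 dpi, while 3.87% of all genes were called lower. Differences at 3 dpi were negative in 4 of the 6 FAP markers and positive in 2. At 7 dpi the sums overlapped, at 4664 and 5492 TPM in the controls and 4303 and 5691 TPM in the Osr1cKO libraries. The part of these markers in the collagen differences was not tested.

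At 7 dpi, Col12a1 was higher in Osr1cKO by 0.70 ± 0.22 (limma, unadjusted p = 0.0201), but with an adjusted p of 0.329 it was not called. None of the 10 members passed the threshold at this day, an adjusted p under 0.1 with a fold over 1.2, against 0.0181% of the 16576 genes tested higher and 0.0483% lower. At an unadjusted p under 0.05 with a fold over 1.2, 1 member was higher (5.31% of all genes) and 4 were lower (5.83%): Col6a6 at -0.63 ± 0.19, Col8a2 at -0.35 ± 0.10, Col6a3 at -0.34 ± 0.11 and Col14a1 at -0.34 ± 0.13, with limma unadjusted p-values from 0.015 to 0.0446. With 1 library left out, the difference ranged from 0.42 to 0.98 for Col12a1 and from -0.90 to -0.37 for Col6a6. It ranged from -0.48 to -0.23 for Col8a2, from -0.40 to -0.30 for Col6a3 and from -0.49 to -0.19 for Col14a1. Col7a1 was higher by 0.55 ± 0.25 and Col8a1 lower at -0.26 ± 0.12, while Col6a1, Col6a2 and Col16a1 differed by -0.10, -0.19 and -0.11. The median over members was -0.23, against 0.01 over all genes, and -0.14 without control replicate 1. Scaling bore on these values: without it the all-gene median was higher by 0.10, Col6a1 and Col16a1 were at 0.03 and 0.02 rather than below 0, and 2 members were higher and 1 lower at an unadjusted p under 0.05 with a fold over 1.2. The scaled genotype ranges did not overlap in 9 members, 2 higher and 7 lower in Osr1cKO, against 23.3% and 22.5% of all genes. In deposited TPM 2 were higher and 3 lower, against 42.8% and 10.7%. Some other markers moved with genotype at this day. Of the 4 tenocyte markers, 3 were higher in Osr1cKO at an unadjusted p under 0.05 by limma, Tnmd by 1.53, Scx by 1.01 and Mkx by 0.39, with adjusted p-values from 0.27 to 0.365. The summed myofiber markers were 53.1 and 51.8 TPM in the controls and 32.7 and 35.4 TPM in the Osr1cKO libraries. Differences were negative in 4 of the 5 myofiber markers and positive in 1. The leukocyte marker Csf1r (0.42), the endothelial marker Cdh5 (0.52) and the Schwann cell marker S100b (0.63) were higher at this unadjusted p. Their limma adjusted p-values were 0.368, 0.317 and 0.366. Their part in the collagen differences was not tested.

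**Figure D4:**
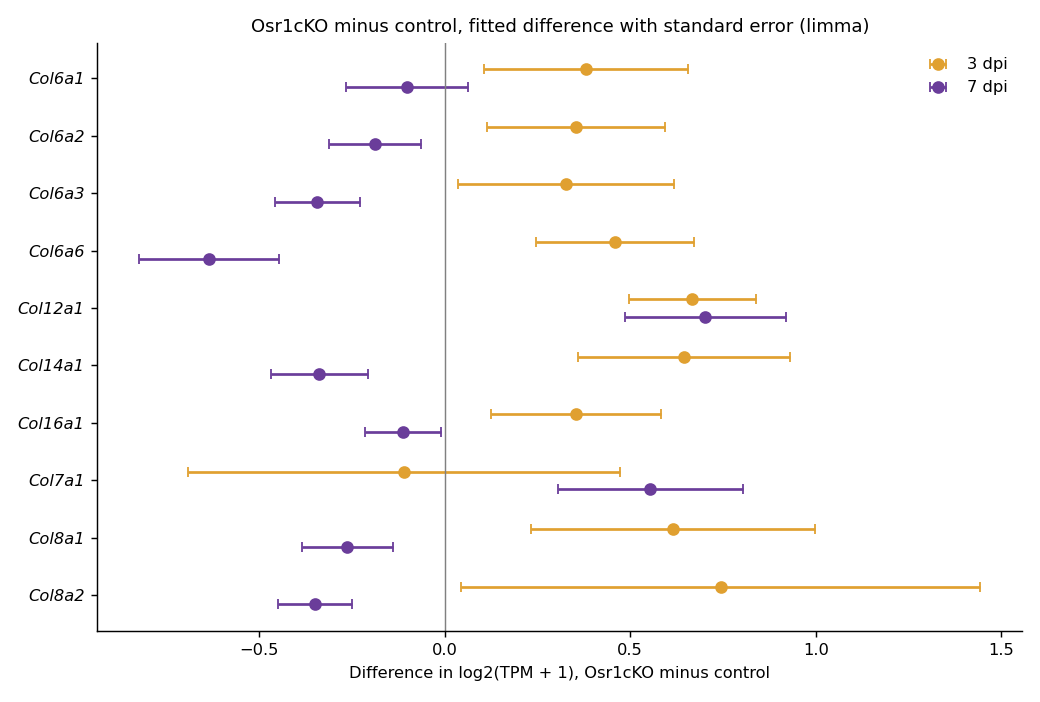
Points give the fitted difference in log2(TPM + 1), Osr1cKO minus control, on the x axis for the 10 members in rows at 3 dpi (orange) and 7 dpi (purple), and bars are standard errors from limma. Of the 10 members 9 lie right of 0 at 3 dpi and 8 lie left of 0 at 7 dpi, with Col12a1 at 0.67 and 0.70.

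The difference between the genotype effects of the days was tested as an interaction. The comparisons within and between days share libraries and are not independent of each other. No member passed an adjusted p under 0.05 by limma, and neither did any other of the 17367 genes, of which 569 were positive and 633 negative at an unadjusted p under 0.05. The interaction was negative in 9 of the 10 members, with a median of -0.65 against -0.03 over all genes, and positive in Col7a1 (0.63 ± 0.72). At an unadjusted p under 0.05, 2 members were negative and none positive, against 3.64% and 3.28% of genes: Col6a6 at -1.13 ± 0.31 (limma, unadjusted p = 0.00816, adjusted p = 0.611) and Col14a1 at -1.02 ± 0.38 (limma, unadjusted p = 0.0289, adjusted p = 0.696). With 1 library left out, the interaction ranged from -1.39 to -0.86 for Col6a6 and from -1.46 to -0.59 for Col14a1. The median over members was -0.35 without Osr1cKO replicate 1 and -0.41 without control replicate 1 of 3 dpi. For Col12a1 the interaction was -0.01 ± 0.31, with a 95% interval from -0.74 to 0.73.

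The most alike genes were taken from 13432 genes tested at both days with a mean of at least 1 TPM, as the smallest root mean square (RMS) difference between log2 profiles centred on each gene over the 8 libraries. Col6a1 and Col6a2 were each other's most alike gene, at 0.0389, and B4galt4 and Sox4 followed for Col6a1, Ephb3 and Igsf3 for Col6a2. Col6a3 was most like Adam19 (0.0767), then Alyref2 and Dchs1. Col16a1 was most like Gm6368 (0.106), then Gm14399 and Mmp14, a membrane collagenase, and Col14a1 was most like Gxylt2 (0.136), then Fap, a fibroblast serine protease, and Rian. Col8a1 was most like Ank1 (0.157), then Ccn4 and Tm4sf1, and Col12a1 was most like Gm7862 (0.185), then Podnl1 and Spata13. Col6a6 was most like Scube2 (0.212), then Fbln7 and Mdk, Col8a2 most like Mfap4 (0.272), then H19 and Itm2a, and Col7a1 most like Adra2a (0.299), then Gm37309 and Rasd1. These distances are descriptions, since the 8 libraries fall into 2 days.

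**Figure D5:**
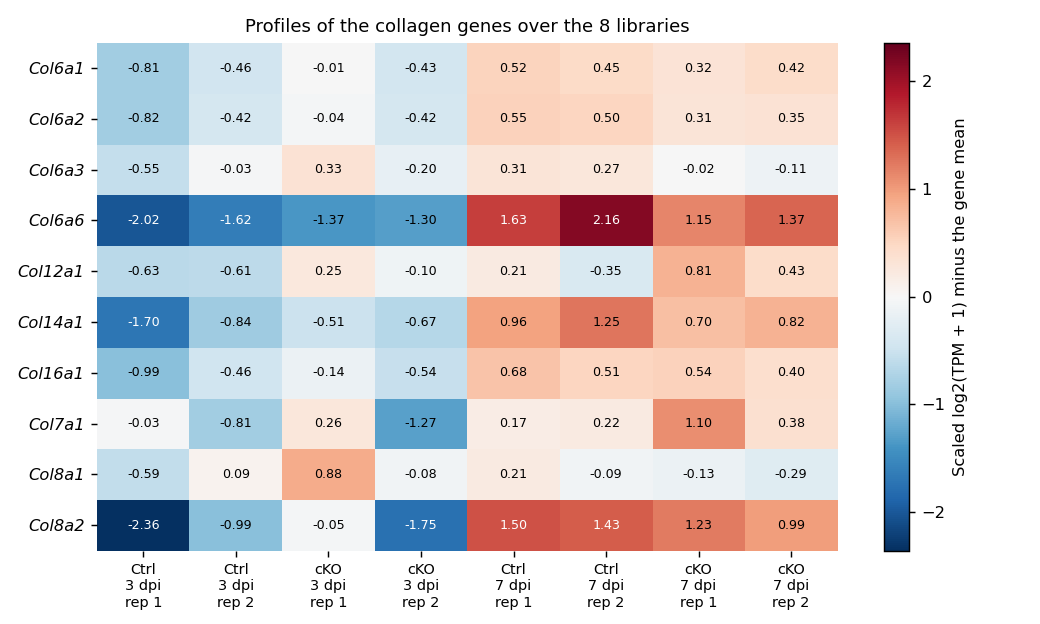
Cells give the scaled log2(TPM + 1) of each member minus its mean over the 8 libraries (red, above the mean; blue, below it), with members in rows and libraries in columns. Col6a1 and Col6a2 run nearly in parallel, and Col6a6 and Col8a2 span the widest ranges, from -2.02 to 2.16 and from -2.36 to 1.496.

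Other chains of these classes were low. Of 10 listed FACIT, type VI and type X chains, 8 were tested over all libraries, Col9a1 among them, and Col19a1 was not tested. Both Col9a1 and Col19a1 were listed at 0 in both controls of 3 dpi. Col9a2, the α2(IX) chain of cartilage, measured 0.152 to 0.296 TPM at 3 dpi, then 4.94 to 6.56 TPM at 7 dpi. It rose in both genotypes, by 2.70 and 2.25 (limma, adjusted p = 0.000151 and 0.000422). Col6a5 rose as well, by 2.12 in the controls and 1.83 in Osr1cKO (limma, adjusted p = 0.00153 and 0.00332). Of the 8, 3 rose in the controls and 4 in Osr1cKO, against 21.6% and 17.6% of all genes, and none fell in either. Between genotypes, 1 of the 6 tested at 3 dpi was called lower in Osr1cKO, against 3.87% of all genes, and none was called higher. It was Col9a3, lower by 0.88 on an unadjusted p of 0.0415 by limma. None of the 8 was called at 7 dpi.

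Of 27 enzymes and chaperones of collagen folding and processing, 4 were called higher and none lower in Osr1cKO at 3 dpi. Over all genes 2.4% were called higher and 3.87% lower. Differences were positive in 25 of the 27, with a median of 0.24 against 0.01 over all genes. The 4 called include Colgalt2, a collagen galactosyltransferase (1.06 ± 0.28), Plod2, a lysyl hydroxylase (0.73 ± 0.22), and Adamts3, a procollagen N-propeptidase (0.46 ± 0.15). Their limma unadjusted p-values were 0.0134, 0.0217 and 0.0292, with adjusted p-values of 0.773. At 7 dpi none of the 27 was called on the adjusted p. At the unadjusted p and fold used at 3 dpi, 5 of them were higher and 1 was lower at 7 dpi, against 5.31% and 5.83% of all genes. From 3 to 7 dpi, 6 rose and 6 fell in the controls, and 1 rose and 9 fell in Osr1cKO. Over all genes 21.6% rose and 23.7% fell in the controls, and 17.6% rose and 22.8% fell in Osr1cKO. Plod3, a lysyl hydroxylase, had the smallest p of the list among genes that fell, at -1.42 and -1.16, and Colgalt2 rose by 2.36 and 1.31. Of 10 receptors of these collagens, none was called between genotypes at either day, and 5 rose and 2 fell with day in the controls. Itga11, the collagen-binding integrin chain α11, rose by 1.60 in controls and 1.45 in Osr1cKO (limma, adjusted p = 0.000705 and 0.00135), and Antxr1, which binds type VI collagen, by 1.74 and 1.35. Of 20 matrix partners tested, 2 were called lower in Osr1cKO at 3 dpi, Comp (-0.54) and Lama3 (-0.54), against 3.87% of all genes. None was called at 7 dpi on the adjusted p. At the unadjusted p and fold used at 3 dpi, 1 partner was higher and 4 were lower at 7 dpi, against 5.31% and 5.83% of all genes. With day, 9 partners rose and 1 fell in the controls and 8 rose and 3 fell in Osr1cKO. The microfibril gene Mfap2 had the smallest p of these in both, at 2.90 and 2.19.

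Markers of other cell types were low beside those of FAPs, except the tenocyte markers, and most reached their highest level at 7 dpi. Summed levels per library were between 10.7 and 57.9 TPM for 6 leukocyte markers, between 17.2 and 70.5 TPM for 4 endothelial markers, and between 5.398 and 53.1 TPM for 5 myofiber markers. They reached 22.5 TPM for 4 muscle stem cell markers, 15.9 TPM for 4 Schwann cell markers, 94.1 TPM for 4 mural cell markers and 45.4 TPM for 3 erythroid markers, each at 7 dpi. The summed tenocyte markers were 522 to 1764 TPM at 3 dpi, then 2235 to 3256 TPM at 7 dpi, and no gene of any marker list was at 0 in all 8 libraries. The part of these markers in the day differences was not tested.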

How the data were processed

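RNA of sorted FAPs was poly(A)-selected, made into stranded libraries and sequenced in pairs. The authors deposited TPM (a length- and depth-normalised transcript level) per gene, aligned with STAR to mm10 per the labels' processing notes, which also name DESeq2; the counting tool and annotation are not given in the sources used here. The methods name 2 instruments and the labels 1; whether day differed in this was not tested. Of 55385 entries, 109 repeats of a symbol were left out. Fragments were recovered from TPM with GENCODE M21 exon lengths: 98.7% to 98.9% of values under 50 fragments came within 0.02 of a whole number. They give the depth. The values are not counts, so limma 3.58.1 (R 4.3.3, lmFit and eBayes with trend) was run on log2(TPM + 1), after scaling by a 30% trimmed mean of log ratios, for genes with 10 fragments in 2 libraries and 15 in all, with Benjamini-Hochberg adjustment. Tables were handled in pandas 2.3.3 and NumPy 2.4.6 and permutation tests in SciPy 1.17.1. Genotype was compared within day from its 4 libraries, and day and interaction from all 8. Tests are two-sided. The method was tested on simulated data.

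The members, gene lists and tests were chosen with earlier results of these data known. Named were all members, Osr1, the 3 genes most like each member, other chains of the classes, and up to 3 called genes of each list per comparison. Replicates are separate mice at 3 dpi and separate pools at 7 dpi. Alternatives covered scaling, filter, pseudocount, test, threshold, replicate block, and leaving out each library. One crossed block was added after the data were seen. Col21a1 was not analysed here.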

Additional observations from a re-analysis of the deposited data

Results flagged for a closer look

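Col14a1, Col6a1 and Col6a6 were marked because both scaled Osr1cKO libraries lay above both controls at 3 dpi and below both at 7 dpi. The interaction of genotype and day was -1.02 for Col14a1 (limma, adjusted p = 0.696), -0.52 for Col6a1 (limma, adjusted p = 0.872) and -1.13 for Col6a6 (limma, adjusted p = 0.611), so no difference between the days passed the test. On the deposited scale the 7 dpi ranges of Col14a1 and Col6a1 overlapped, and those of Col6a6 did not.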

How the results depend on the processing

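The 50 member differences (10 members, 5 comparisons) were recomputed under each alternative that applied. Of the recomputed values, 612 kept direction and side of the threshold, 29 passed it under an alternative, 13 lost it and 16 changed sign. Without scaling, Col16a1 and Col6a1 at 7 dpi were 0.0166 and 0.0267, and the Col12a1 interaction was 0.17. That interaction was also positive with median of ratios scaling (0.0254), a TPM filter (0.015) and limma-voom on recovered fragments (0.0466), and with libraries left out ranged from -0.28 to 0.27. Leaving out a library gave ranges of -0.88 to 0.66 for Col7a1 and -0.12 to 1.60 for Col8a2 at 3 dpi, -0.0373 to 0.64 for Col8a1 with day in the controls, -0.40 to 0.13 for Col6a3 with day in Osr1cKO, and -0.14 to 1.40 for the Col7a1 interaction.

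Members higher in Osr1cKO at 3 dpi numbered 2 with limma-voom or the fit of all 8 libraries, and 0 at an adjusted p under 0.1 (1 at the unadjusted p). At 7 dpi the unadjusted p gave 1 higher and 4 lower. At the adjusted p none was called. With day in Osr1cKO, 7 rose without scaling (3456 of 17367 genes) and 2 without a filter (2113 of 34143 genes). The Col6a2 share in Osr1cKO minus controls at 7 dpi was 0.603 points on fragments, against -0.233 on TPM. The 2 shares weight the same fragments differently, since TPM divides by exon length. These lengths are 4380 bases for Col6a1, 8326 for Col6a2 and 11963 for Col6a3. Causes of the other shifts were not tested.

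Over 13432 genes, the deviations of same-number libraries correlated at -0.132 at 3 dpi and 0.127 at 7 dpi. Such values cannot show whether same-number libraries were paired, and the main fits treated the numbers as names only. With the replicate block, the members called were 1 higher at 3 dpi, 0 at 7 dpi, 7 with day in the controls and 4 in Osr1cKO, and 0 for the interaction; over all genes it called 13 higher and 14 lower at 7 dpi, against 3 and 8. The crossed pairing at 3 dpi, added after the data were seen, called 5 members and 483 genes higher and 685 lower. Over all genes at 7 dpi, limma-voom called 77 higher and 122 lower, and at an unadjusted p without scaling 2280 were higher and 468 lower, against 880 and 966. With 2 libraries a group, spread is poorly known.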
